A study of Mus musculus with 8 samples.

Results

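Prodynorphin-expressing β-cells were defined as β-cells with at least 2 *Pdyn* UMIs (unique molecular identifiers, each counting 1 captured mRNA molecule). Across the 8 samples there were 108 such cells among 923 β-cells, or 11.7%, and among 1240 cells in all. A β-cell was a cell with at most 3000 genes and 20000 UMIs in which *Ins1* and *Ins2* together held at least 20% of UMIs and *Gcg*, *Sst* and *Ppy* each held under 5%. They were compared with 646 β-cells of the same samples that had 0 *Pdyn* UMIs and at least 3000 UMIs, termed comparison cells. Both classes were thus chosen by their measured *Pdyn*, insulin, other hormone and total UMIs, so these values are given as a description.

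Prodynorphin is the precursor of the dynorphins, opioid peptides that act mainly on the κ-opioid receptor, a receptor coupled to inhibitory G proteins. The precursor is cut within secretory granules by prohormone convertases, above all PC2, and trimmed by carboxypeptidase E, the same enzymes that mature insulin and other islet hormones. In neurons, transcription of *Pdyn* is known to respond to cyclic AMP, calcium and CREB, and dynorphins are best known for their part in pain, stress and aversion.

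The islets came from male C57BL/6J mice, all wild type and 8 weeks old. Control mice had no operation, so a sham operation is not among the groups, and PPTx mice had 50% partial pancreatectomy 2 days before islets were taken. Each group had 4 samples, and each sample pooled islets of 1 to 3 mice, so that a sample and not a mouse is the replicate. Cells were captured on a ddSEQ droplet isolator, whereas the library kit is named as Chromium in the sample labels and as SureCell in the methods. Samples held 66 to 294 cells and 236645 to 1580152 UMIs, and control replicate 1 was the smallest on both counts. Nothing in the sources says whether samples of a group were prepared on separate days, and p-values here measure the spread between these samples.

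Of 9 β-cell markers outside the rule, 8 were detected in the *Pdyn*-expressing cells. They summed to between 42840.7 and 68382.4 CPM (counts per 1000000 UMIs) over 7 samples, nearly all of it the islet amyloid peptide gene *Iapp* at a median of 51315 CPM. *G6pc2* was at a median of 1817, *Ucn3* at 417, *Slc30a8* at 336, *Slc2a2* at 161 and *Pdx1* at 5.42 CPM. *Mafa* was the marker at 0, and it had 2 UMIs in all 923 β-cells. Other endocrine cells, with insulin under 20% and *Gcg*, *Sst* or *Ppy* at 10% or more, had no *Pdyn* UMI in 268 cells (exact 95% confidence interval up to 1.37%) at a median depth of 4303.5 UMIs. At least 1 *Pdyn* UMI was present in 19.5% of β-cells. After every cell was thinned to 3000 UMIs, 100 of 811 β-cells (12.3%) and 0 of 206 other endocrine cells kept a *Pdyn* UMI.

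Promoter sequences are shown for *Pdyn* and for the genes on which the comparisons below turn, since members that moved together can then be read side by side. Each run of 300 bases spans 250 bases before and 50 after a RefSeq transcription start on GRCm38.p6, written 5′ to 3′ on the gene's strand. Motifs were searched on both strands and are in capitals: the cyclic AMP response element (CRE) TGACGTCA, its core TGACG, the AP-1 site TGANTCA, the metal response element (MRE) TGCACNC or TGCGCNC, and the endoplasmic reticulum stress element (ERSE) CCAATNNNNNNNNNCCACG. The core lies within the full CRE, and matches of the other motifs may overlap. Of 32851 promoters of this length, 1.79% held the CRE, 20.8% the core, 7.81% the AP-1 site, 25.7% an MRE and 0.119% the ERSE. RefSeq promoters were in the table for 19 of the 27 genes called below.

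*Pdyn* lies on the minus strand, and the window of its first start, at chr2:129699889-129700188, held none of these motifs. The window of a second start, at chr2:129698609-129698908, also held none and is not shown. Sequence outside these windows was not searched.
Pdyn: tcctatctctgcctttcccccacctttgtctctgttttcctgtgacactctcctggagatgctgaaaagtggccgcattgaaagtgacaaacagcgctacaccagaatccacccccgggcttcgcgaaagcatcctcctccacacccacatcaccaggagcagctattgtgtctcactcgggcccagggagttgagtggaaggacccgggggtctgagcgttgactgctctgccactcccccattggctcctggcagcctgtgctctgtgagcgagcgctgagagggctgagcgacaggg

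*Dapl1* lies on the plus strand at chr2:59484403-59484702, and its window held a CRE core.
Dapl1: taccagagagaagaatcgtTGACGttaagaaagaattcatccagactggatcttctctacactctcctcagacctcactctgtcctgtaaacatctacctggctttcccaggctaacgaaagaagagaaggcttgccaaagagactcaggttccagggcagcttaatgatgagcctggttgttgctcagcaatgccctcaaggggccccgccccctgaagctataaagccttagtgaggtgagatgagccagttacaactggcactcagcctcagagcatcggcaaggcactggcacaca

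*Mt1* (chr8:94178839-94179138, plus strand) and *Mt2* (chr8:94172368-94172667, plus strand) are neighbours. *Mt1* held 3 MREs and a CRE core, and *Mt2* held 4 MREs and an AP-1 site, where 1.97% of all promoters held 3 or more MREs.
Mt1: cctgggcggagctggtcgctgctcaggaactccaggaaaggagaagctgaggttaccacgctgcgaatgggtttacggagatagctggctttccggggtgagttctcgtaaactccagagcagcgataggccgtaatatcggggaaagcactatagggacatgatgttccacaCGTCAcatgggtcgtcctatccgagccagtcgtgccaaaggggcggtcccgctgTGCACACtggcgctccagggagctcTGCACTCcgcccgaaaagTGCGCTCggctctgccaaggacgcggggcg
Mt2: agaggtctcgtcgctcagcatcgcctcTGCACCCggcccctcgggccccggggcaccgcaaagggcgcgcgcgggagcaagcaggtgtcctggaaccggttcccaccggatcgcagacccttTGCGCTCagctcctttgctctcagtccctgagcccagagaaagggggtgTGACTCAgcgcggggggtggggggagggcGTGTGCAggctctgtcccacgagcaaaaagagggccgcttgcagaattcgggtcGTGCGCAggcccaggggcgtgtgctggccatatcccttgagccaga

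*Hspa5* (chr2:34771840-34772139, plus strand), *Hsp90b1* (chr10:86705395-86705694, minus strand) and *Pdia6* (chr12:17266339-17266638, plus strand) each held an ERSE, and *Hsp90b1* held 2. *Hspa5* also held a CRE core and an AP-1 site, and *Hsp90b1* also held 2 MREs. A match is a description of the letters and not evidence of a bound factor.
Hspa5: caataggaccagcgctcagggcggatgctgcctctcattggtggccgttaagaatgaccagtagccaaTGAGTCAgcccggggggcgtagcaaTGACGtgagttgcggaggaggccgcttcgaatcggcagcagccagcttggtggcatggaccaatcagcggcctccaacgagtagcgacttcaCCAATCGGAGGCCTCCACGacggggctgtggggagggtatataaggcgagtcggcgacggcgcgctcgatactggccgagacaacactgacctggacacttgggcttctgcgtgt
Hsp90b1: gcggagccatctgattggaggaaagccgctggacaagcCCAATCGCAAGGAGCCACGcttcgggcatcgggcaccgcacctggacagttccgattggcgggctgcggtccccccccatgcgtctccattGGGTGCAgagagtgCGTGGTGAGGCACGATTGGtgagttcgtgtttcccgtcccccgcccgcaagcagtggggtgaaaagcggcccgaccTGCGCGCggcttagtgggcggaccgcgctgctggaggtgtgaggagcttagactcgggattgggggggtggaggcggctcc
Pdia6: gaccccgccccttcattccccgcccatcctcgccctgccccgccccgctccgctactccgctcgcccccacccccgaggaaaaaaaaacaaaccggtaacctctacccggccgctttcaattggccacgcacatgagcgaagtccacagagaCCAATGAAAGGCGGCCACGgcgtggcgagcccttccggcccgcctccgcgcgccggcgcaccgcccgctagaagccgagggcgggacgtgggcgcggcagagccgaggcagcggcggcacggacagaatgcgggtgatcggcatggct

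*Pdyn* was unevenly spread among β-cells. The 923 β-cells held 587 *Pdyn* UMIs, of which 515 (87.7%) were in the 108 members, a part that follows largely from the rule. The 10 cells with 10 or more *Pdyn* UMIs held 148 of the 587 (25.2%). A member held a median of 3.5 *Pdyn* UMIs, and the highest count, 24, was reached by 1 cell of control replicate 3 and 1 cell of PPTx replicate 1. Per 10000 UMIs of the cell, members ranged from 1.12 to 29.5 with a median of 4.16. Within each sample the variance of *Pdyn* UMIs across β-cells was 2.26 to 11.1 times their mean. These ratios were not adjusted for the depth of the cells, which ran from 2005 to 19459 UMIs over all β-cells. Just inside the threshold were 41 cells with exactly 2 *Pdyn* UMIs, at a median of 9566 UMIs in all, and just outside it were 72 cells with exactly 1, at a median of 6834.5.

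**Figure D1:**
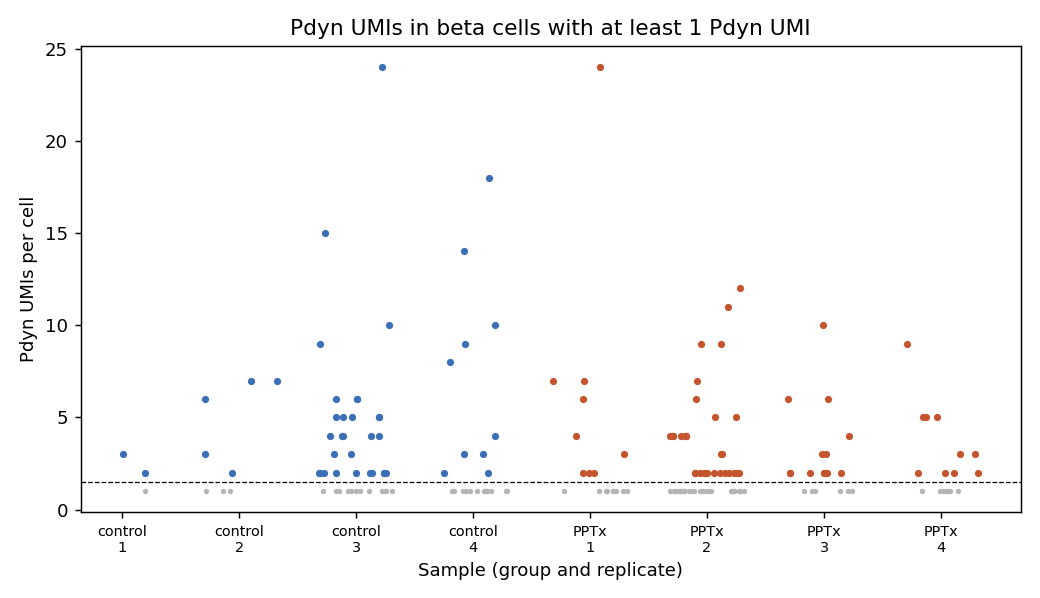
Each point is a β-cell with at least 1 *Pdyn* UMI, by sample (horizontal axis) and its *Pdyn* UMIs (vertical axis), with members in blue (control) or orange (PPTx), cells of 1 UMI in grey, and points spread sideways for legibility. Most cells lie below 10 UMIs, and cells of 10 or more occur in 5 of the 8 samples.

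The rule counts UMIs, and members were deeper cells in most samples. Their median depth was above that of comparison cells in 7 of 8 samples, and in PPTx replicate 4 it was below, at 3299.5 against 4385.5 UMIs. Pooled over samples that differ in both depth and member share, members had a median of 9832 UMIs against 6374.5 in comparison cells, whereas insulin held a like part of their UMIs, 60.4% against 59.4%. Of all β-cells pooled with 2000 to 5000 UMIs, 5.67% were members, and of those with 5000 to 8000 UMIs 6.90%. The share was 19.8% (45 of 227) between 8000 and 12000 UMIs and 33.8% (24 of 71) above. The part of this depth difference in the results below was not tested beyond the fits that treat depth otherwise, which are given below.

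The first comparison asked whether PPTx changed the share of β-cells that express prodynorphin, and no difference was found. In control samples 1 to 4 members made up 3.70% (2 of 54), 6.58% (5 of 76), 23.8% (29 of 122) and 8.62% (10 of 116) of β-cells. In PPTx samples 1 to 4 they made up 9.28% (9 of 97), 13.4% (30 of 224), 12.9% (13 of 101) and 7.52% (10 of 133). Control samples spanned both the lowest and the highest share, and the PPTx samples lay between them. Group means were 10.8 ± 2.83% in PPTx and 10.7 ± 8.96% in control (SD, n = 4 each), a difference of 0.0969 percentage points (exact two-sided permutation test, p = 1, smallest possible 0.0286).

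Control replicate 3, which held the highest share, also had the deepest β-cells, with a median of 10441 UMIs against 3468 to 9601 in the other samples. Without it the control mean was 6.30% and the difference 4.46 points (exact permutation test, p = 0.114). After thinning to 3000 UMIs, cells with at least 1 *Pdyn* UMI made up 2.78%, 8.57%, 13.7% and 11.7% in control samples 1 to 4. In PPTx samples 1 to 4 the thinned shares were 7.45%, 20.4%, 9.09% and 10.2%. At this depth and with 1 UMI sufficing, PPTx replicate 2 held the highest share, and the groups overlapped (difference 2.61 points, exact permutation test, p = 0.543). With the threshold kept at 2 or more after thinning, control replicate 3 remained the highest at 9.40% and PPTx replicate 2 followed at 8.06% (difference in means -0.138 points, exact permutation test, p = 0.914).

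**Figure D2:**
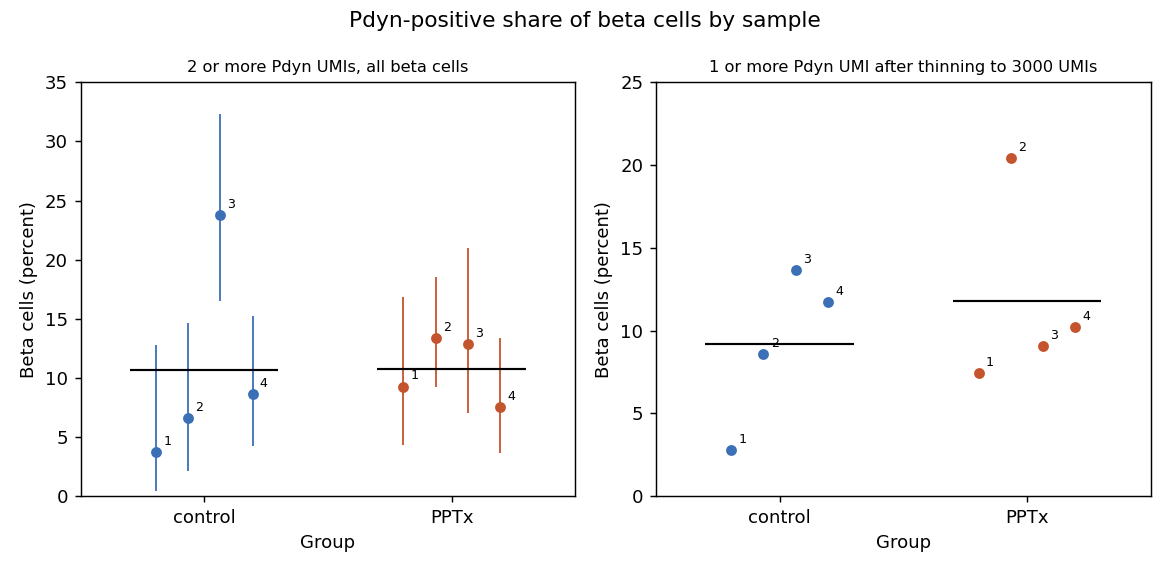
Share of β-cells in percent (vertical axes) by group (horizontal axes), with points numbered by replicate and black lines for group means, on the left with 2 or more *Pdyn* UMIs and exact 95% binomial intervals that cover counting error only, on the right with 1 or more after thinning to 3000 UMIs, so that the panels differ in both depth and threshold. The groups overlap in both panels, with control replicate 3 at 23.8% on the left and PPTx replicate 2 at 20.4% on the right.

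The level of *Pdyn* over all β-cells gave the same picture. Summed over β-cells, *Pdyn* was at 30.6, 60.5, 125 and 100.09 CPM in control samples 1 to 4 and at 84.0, 121, 54.6 and 84.0 CPM in PPTx samples 1 to 4. The highest and the lowest level were both in control samples. The fitted log2 fold change, PPTx minus control, was -0.18 ± 0.26 (SE; edgeR quasi-likelihood test, adjusted p = 0.896), with a 95% confidence interval from -0.72 to 0.36, or 0.607-fold to 1.28-fold. In this fit 19 of 5830 genes were called at an adjusted p under 0.05 (0.326%), 12 higher (0.206%) and 7 lower (0.12%) after PPTx. Fewer *Pdyn*-expressing cells and less *Pdyn* per cell cannot be told apart in such sums.

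Other genes of the opioid system were at 0 or near it in these cells. *Penk* (proenkephalin) and *Pnoc* (pronociceptin) had 0 UMIs in members and in comparison cells, and *Pomc* (pro-opiomelanocortin) had 13 UMIs in 13 of 108 members, at 12.9 CPM, and 51 UMIs in 46 of 646 comparison cells, at 11.4 CPM. *Pomc* was also at 7.60 CPM in other endocrine cells. The κ receptor *Oprk1*, the δ receptor *Oprd1* and the nociceptin receptor *Oprl1* had 0 UMIs in all 923 β-cells. This allows a UMI in up to 0.325% of cells (3 divided by the cells, pooled over samples). The μ receptor *Oprm1* had 2 UMIs in comparison cells. Capture of receptor transcripts was uneven. Of 2 receptors on the β-cell identity list, *Glp1r* had 6 UMIs in 5 β-cells and *Gipr* 121 UMIs in 100. A count of 0 therefore does not show that a receptor is absent. *Kcnip3*, which encodes the *Pdyn* repressor DREAM, had 0 UMIs in members, 1 in comparison cells and 27 in 26 of the 268 other endocrine cells. *Npy*, another neuropeptide of young β-cells, had 22 UMIs in 4 members and 42 UMIs in 7 comparison cells.

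Members were then compared with comparison cells of the same sample, to ask what else set them apart. Control replicate 1 had 2 members, under the minimum of 5 cells, and was left out, which left 3 control and 4 PPTx samples. Counts were summed per sample and class and fitted with the sample as a block. Of 3038 genes tested, 27 were called at an adjusted p under 0.05 (0.889%), 16 higher (0.527%) and 11 lower (0.362%) in members, and 293 had an unadjusted p under 0.05. The median log2 fold change over all tested genes was -0.01. Without the sample block 0 genes were called, with 223 at an unadjusted p under 0.05, while DESeq2 with the block called 21 of the 383 genes it adjusted. Fits that treated depth otherwise did not keep the same calls. After thinning, 22 of the 27 genes could be tested and 8 were called by edgeR, namely *Dapl1*, *Gng12*, *Mt1*, *Ftl1*, *Fth1*, *Sepp1*, *Insrr* and *Pyy*. Against depth-matched comparison cells 24 could be tested and 5 were called, namely *Dapl1*, *Mt1*, *Mt2*, *Ftl1* and *Calm2*. Without cells over 12000 UMIs 25 could be tested and 12 were called, namely *Dapl1*, *Gng12*, *Mt1*, *Mt2*, *Ftl1*, *Fth1*, *Insrr*, *Nucb2*, *Defb1*, *Hsp90b1*, *Sec11c* and *Gnai2*.

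*Dapl1*, which encodes a small relative of the death-associated protein DAP, was the gene with the lowest p. In members its level was 221 CPM at the lowest, 482 at the median and 683 at the highest of 7 samples, and in comparison cells 130, 252 and 372. It was higher in members in 7 of 7 samples, although the ranges overlapped, and all 4 PPTx samples stood above the control samples in both classes. The log2 fold change was 1.06 ± 0.12 (SE; edgeR, adjusted p = 1.64e-12), or 2.09-fold, and it was 0.97 after thinning (adjusted p = 1.25e-05) and 0.82 against comparison cells matched on UMIs (adjusted p = 9.46e-05). Between groups, over all β-cells, *Dapl1* was at 341 ± 38.1 CPM after PPTx and 142 ± 65.0 CPM in control (SD, n = 4 each), a log2 fold change of 1.05 (edgeR, adjusted p = 0.0366). That call between groups was lost in 5 of 8 fits that left out a sample (0.84 to 1.21, adjusted p up to 0.108) and after thinning (0.87, adjusted p = 0.159).

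*Gng12*, a γ subunit of heterotrimeric G proteins, was also higher in members in 7 of 7 samples. Its levels were 808 CPM at the lowest, 885 at the median and 1184 at the highest in members, against 409, 608 and 942 in comparison cells. The log2 fold change was 0.59 ± 0.10 (SE; edgeR, adjusted p = 8.00e-06), 0.53 after thinning (adjusted p = 0.0113) and 0.42 against depth-matched cells (adjusted p = 0.0827). *Gng12* was not on the list of G-protein signalling genes. Of 11 tested of the 18 listed, *Gnai2*, an inhibitory α subunit through which κ receptors can signal, was called and lower (log2 fold change -0.49 ± 0.13, adjusted p = 0.0328, lower in 6 of 7 samples, -0.50 after thinning with adjusted p = 0.223, and -0.33 against depth-matched cells with adjusted p = 0.519), *Gnao1* was at 0.40 (adjusted p = 0.435), and the list's median was -0.06. No gene of the G-protein signalling list was called higher.

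The metallothioneins, small metal-binding proteins, were both lower in members. *Mt1* was at 80.5 CPM at the lowest, 126 at the median and 199.5 at the highest in members and at 186, 273 and 633 in comparison cells. It was lower in members in 7 of 7 samples, and the ranges overlapped. The log2 fold change was -1.23 ± 0.16 (SE; edgeR, adjusted p = 1.73e-10), -1.34 after thinning (adjusted p = 6.39e-06) and -0.87 against depth-matched cells (adjusted p = 0.0444). *Mt2* was at 9.18, 38.0 and 84.0 CPM in members and 51.5, 106 and 225 in comparison cells, lower in 6 of 7 samples (log2 fold change -1.55 ± 0.24, adjusted p = 6.53e-07). By group, *Mt1* averaged 116 CPM in members and 516 CPM in comparison cells of control samples (n = 3) and 138 and 235 CPM in PPTx samples (n = 4). *Mt2* averaged 27.5 and 194 CPM in control and 55.5 and 82.6 CPM in PPTx, where members were above comparison cells in 1 of 4 samples. The interaction of class and group was not called for *Mt1* (0.88, edgeR, adjusted p = 0.9999) or *Mt2* (1.72, adjusted p = 0.985). Members held 40 *Mt2* UMIs in all, and 1 cell gave 20% of them.

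The ferritin subunits, which store iron, fell as well. *Ftl1* (light chain) was at 329, 392 and 739 CPM in members against 547, 793 and 1137 in comparison cells, lower in 7 of 7 samples (log2 fold change -0.67 ± 0.11, edgeR, adjusted p = 1.85e-06). *Fth1* (heavy chain) was at 392, 455 and 633 CPM against 582, 662 and 783, also lower in 7 of 7 samples (-0.44 ± 0.11, adjusted p = 0.0146). Its call was lost without control replicate 4 or PPTx replicate 4 (adjusted p up to 0.142) and against depth-matched cells (-0.29, adjusted p = 0.447), where *Ftl1* was at -0.56 (adjusted p = 0.0139). After thinning both were called, *Fth1* at -0.52 (adjusted p = 0.0452) and *Ftl1* at -0.74 (adjusted p = 0.000191). Both genes have processed pseudogenes of near-identical sequence, and their counts depend on how such reads were assigned. Of the 11 tested genes of the metallothionein and redox list (13 listed), these 4 were called, all lower, and the list's median was -0.0049. Among the others the glutathione peroxidase *Gpx3* had the largest value, 0.49 (adjusted p = 0.19, above 0 in 5 of 7), and against depth-matched cells it was called and higher, at 0.94 (edgeR, adjusted p = 0.0232), but not after thinning (0.57, adjusted p = 0.451).

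**Figure D3:**
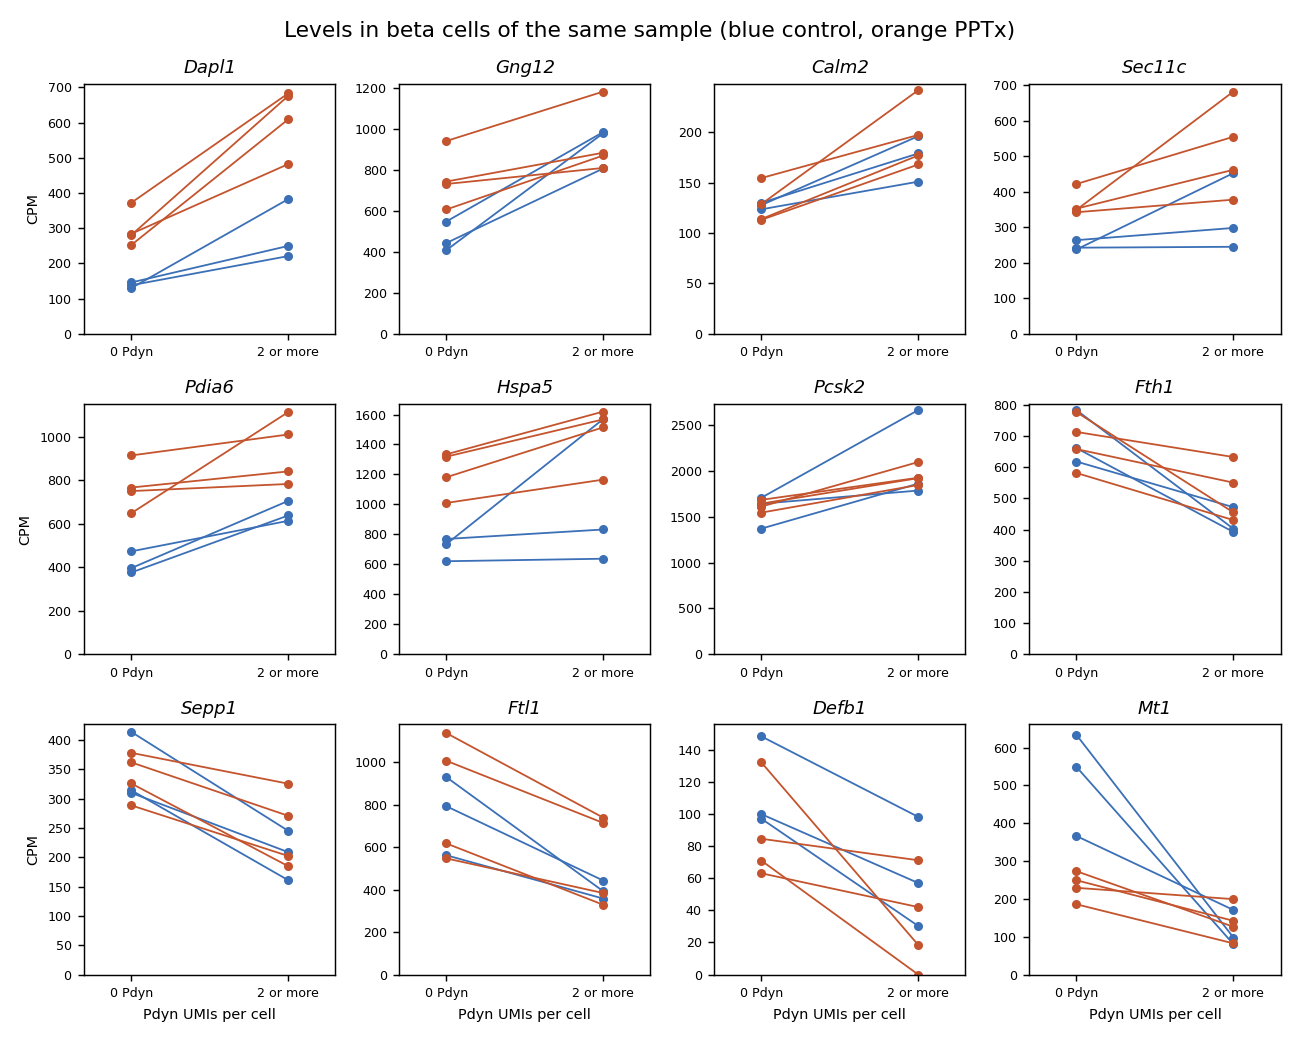
Levels in CPM (vertical axes, each from 0) of the 12 genes named by rule, in comparison cells and in members of the same sample (horizontal axes), with a line for each of 7 samples. The 7 genes from *Dapl1* to *Pcsk2* are higher in members and the 5 genes from *Fth1* to *Mt1* lower in every sample.

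Chaperones of the endoplasmic reticulum (ER), which fold and check secreted proteins, included 3 called genes. Of 20 listed genes 16 were tested, 3 were called and higher, 0 were called and lower, and 14 of 16 were above 0 with a median log2 fold change of 0.27, against 48.3% above 0 and a median of -0.01 over all tested genes. *Hspa5* (BiP) was at 637, 1515 and 1620 CPM in members and 621, 1010 and 1334 in comparison cells, higher in 7 of 7 samples (0.37 ± 0.09, edgeR, adjusted p = 0.0245). *Pdia6*, a disulfide isomerase, was at 613, 782 and 1113 CPM against 375, 648 and 913, higher in 7 of 7 (0.39 ± 0.10, adjusted p = 0.0255). *Hsp90b1* (GRP94) was at 494, 759 and 1340 CPM against 383, 537 and 970, higher in 6 of 7 (0.41 ± 0.10, adjusted p = 0.0146).

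Each of these 3 calls was lost in some of the fits that left out a sample, where the log2 fold changes were 0.24 to 0.40 for *Hspa5*, 0.32 to 0.44 for *Pdia6* and 0.33 to 0.51 for *Hsp90b1*. *Hspa5* and *Hsp90b1* lost their call without control replicate 4 or any of PPTx replicates 2, 3 and 4 in turn (adjusted p up to 0.332 and 0.142), and *Pdia6* without any of 5 samples (up to 0.146). Against depth-matched cells their log2 fold changes were 0.26, 0.20 and 0.29 for *Hspa5*, *Pdia6* and *Hsp90b1*, with adjusted p of 0.379, 0.637 and 0.394. After thinning they were 0.34, 0.45 and 0.26, with adjusted p of 0.156, 0.066 and 0.535. *Manf*, a secreted ER stress protein, was at 0.35 (adjusted p = 0.0517, above 0 in 7 of 7; DESeq2, 0.37, adjusted p = 0.0311), and the co-chaperone *Dnajb9* at 0.41 (adjusted p = 0.0966). *Sec11c*, the catalytic subunit of signal peptidase and not on the list, was called as well, at 245, 453 and 683 CPM against 238, 343 and 422 (0.45 ± 0.12, adjusted p = 0.0316, higher in 7 of 7). Its call was lost without control replicate 4 or any of PPTx replicates 2, 3 and 4 in turn (up to 0.155), after thinning (0.54, adjusted p = 0.0771) and against depth-matched cells (0.30, adjusted p = 0.516).

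Among the enzymes that process prohormones, *Pcsk2* was called. This gene encodes PC2, the convertase that cuts prodynorphin, and it was at 1787, 1923 and 2667 CPM in members against 1372, 1644 and 1709 in comparison cells. It was higher in 7 of 7 samples and its ranges did not overlap. The log2 fold change was 0.32 ± 0.09 (SE; edgeR, adjusted p = 0.0328), 0.29 after thinning (adjusted p = 0.156), 0.28 against depth-matched cells (adjusted p = 0.233) and 0.31 without cells over 12000 UMIs (adjusted p = 0.13). The call held in 1 of 7 fits that left out a sample, the one without control replicate 3, and the adjusted p reached 0.205 in the others, while the log2 fold change was 0.26 to 0.34 over all 7. *Pcsk1*, which encodes PC1/3, was at 0.46 (adjusted p = 0.177) and *Pam*, the peptide-amidating enzyme, at 0.37 (adjusted p = 0.20), each above 0 in 7 of 7 samples but not called. Of 10 listed genes 8 were tested, 4 above and 4 below 0, 1 was called, and the median was 0.07.

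Other called genes named by the rule were *Calm2*, *Defb1* and *Sepp1*. *Calm2*, a calmodulin gene, was at 151, 179 and 242 CPM in members against 113, 128 and 155 in comparison cells, higher in 7 of 7 samples (0.57 ± 0.15, edgeR, adjusted p = 0.0385), but its call was lost in all 7 fits that left out a sample (0.45 to 0.61, adjusted p up to 0.28). It was at 0.20 after thinning (adjusted p = 0.892) and 0.35 without cells over 12000 UMIs (adjusted p = 0.569), and was called against depth-matched cells, at 0.80 (adjusted p = 0.0466). *Sepp1*, the plasma selenoprotein P, was at 161, 209 and 326 CPM against 289, 326 and 414, lower in 7 of 7 (-0.54 ± 0.13, adjusted p = 0.0143). *Defb1*, a β-defensin, was at 0, 42.0 and 98.1 CPM against 63.0, 96.9 and 148, lower in 7 of 7 (-1.10 ± 0.24, adjusted p = 0.00216). Without control replicate 4 *Sepp1* had an adjusted p of 0.0738, and without PPTx replicate 2 *Defb1* had one of 0.198, while over all such fits they ranged from -0.62 to -0.49 and from -1.33 to -0.77. Neither was called against depth-matched cells, where *Sepp1* was at -0.51 (adjusted p = 0.0827) and *Defb1* at -1.02 (adjusted p = 0.0655). After thinning *Sepp1* was called, at -0.75 (adjusted p = 0.0251), and *Defb1* could not be tested.

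The remaining called genes did not move the same way in every sample. Of them *Gc*, *Nucb2*, *Pyy* and *Scd2* are on the lists, and the others were named after their values were seen. Higher were *Pappa2* (1.49), *Cks1b* (1.11), *Dtymk* (1.09), *P2ry1* (0.80), *Gc* (0.76), *Nucb2* (0.68), *Ubr4* (0.57) and *Fkbp11* (0.49) as log2 fold changes. Lower were *Pyy* (-1.05), *Insrr* (-0.87), *Scd2* (-0.85) and *Camk2n1* (-0.55). Of the 7 fits that left out a sample, *Fkbp11* was called in 1, *Ubr4* and *Camk2n1* in 2 each, *P2ry1* in 3 and *Pappa2* in 6. After thinning *Fkbp11* was at 0.22 (edgeR, adjusted p = 0.811). *Nucb2*, the precursor of nesfatin-1, was at 73.5, 327 and 654 CPM in members against 97.1, 141 and 273, higher in 5 of 7, and without control replicate 4 it was at 0.35 (adjusted p = 0.411). *Insrr*, an insulin receptor relative, was at 63.0, 97.6 and 177 CPM against 145, 179 and 228, lower in 6 of 7. The 7 genes called in every fit that left out a sample were *Dapl1*, *Gng12*, *Mt1*, *Mt2*, *Ftl1*, *Insrr* and *Pyy*. Of these, *Gng12*, *Insrr* and *Pyy* were not called against depth-matched cells, where *Insrr* was at -0.54 (adjusted p = 0.353) and *Pyy* at -0.14 (adjusted p = 0.977). After thinning all 3 were called, *Insrr* at -1.33 (adjusted p = 0.00355) and *Pyy* at -1.06 (adjusted p = 1.54e-05). *Pyy* ranged from -1.60 to -0.65 over the fits that left out a sample, DESeq2 gave it an adjusted p of 0.132, and with other hormones each under 1% it was at -0.024 (edgeR, adjusted p = 0.99).

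Genes of β-cell identity and maturity lay mostly below 0 in members, and 0 were called. Of 20 listed, 15 were tested, 13 were below 0 and the median log2 fold change was -0.16. In this list 13.3% were above 0, against 48.3% above 0 and a median of -0.01 over all tested genes. Over all tested genes 0.889% were called, so 0 calls among 15 say little about this list. The largest values were those of *Kcnj11*, a KATP channel subunit (-0.73, adjusted p = 0.396), and *Slc2a2*, the glucose transporter GLUT2 (-0.45, adjusted p = 0.131, lower in 7 of 7 samples). The peptides *Iapp* and *Ucn3* had no call either, *Ucn3* being at -0.32 (adjusted p = 0.19). Of the granins and granule proteins 9 of 10 were tested and 0 were called (median -0.06), the zinc transporter *Slc30a8* being at -0.38 (adjusted p = 0.119). After thinning *Slc30a8* was called and lower, at -0.63 (edgeR, adjusted p = 0.0452), but not against depth-matched cells (-0.40, adjusted p = 0.298).

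Few genes known to respond to CREB and calcium could be tested in members. Of 31 listed genes 8 were tested and 0 were called, with 4 above and 4 below 0 and a median of -0.10. *Crem* was at 0.67 (adjusted p = 0.396) and *Btg2* at -0.36 (adjusted p = 0.606). Of 15 glucose-responsive genes 6 were tested, and *Scd2*, a fatty acid desaturase, was called and lower (adjusted p = 0.0385), while *Fasn* was at -0.68 (adjusted p = 0.482). The call of *Scd2* was lost without control replicate 4, PPTx replicate 2 or PPTx replicate 4 (adjusted p up to 0.431), after thinning (-1.15, adjusted p = 0.165) and against depth-matched cells (-0.88, adjusted p = 0.215). Of 18 neuronal and synaptic genes 12 were tested and 0 were called (median -0.19), with *Gad1* at -0.79 (adjusted p = 0.179) and *Syt4* at 0.53 (adjusted p = 0.0801). *Syt4* was at 0.05 after thinning (adjusted p = 0.992) and 0.40 against depth-matched cells (adjusted p = 0.486), and it was called by DESeq2 (0.56, adjusted p = 0.0455) and with members of 3 or more *Pdyn* UMIs (0.69, edgeR, adjusted p = 0.0251). Over all tested genes 0.889% were called, so 0 calls among 8 or 12 tested genes say little about these lists. A p that misses the threshold does not show that these levels were alike.

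**Figure D4:**
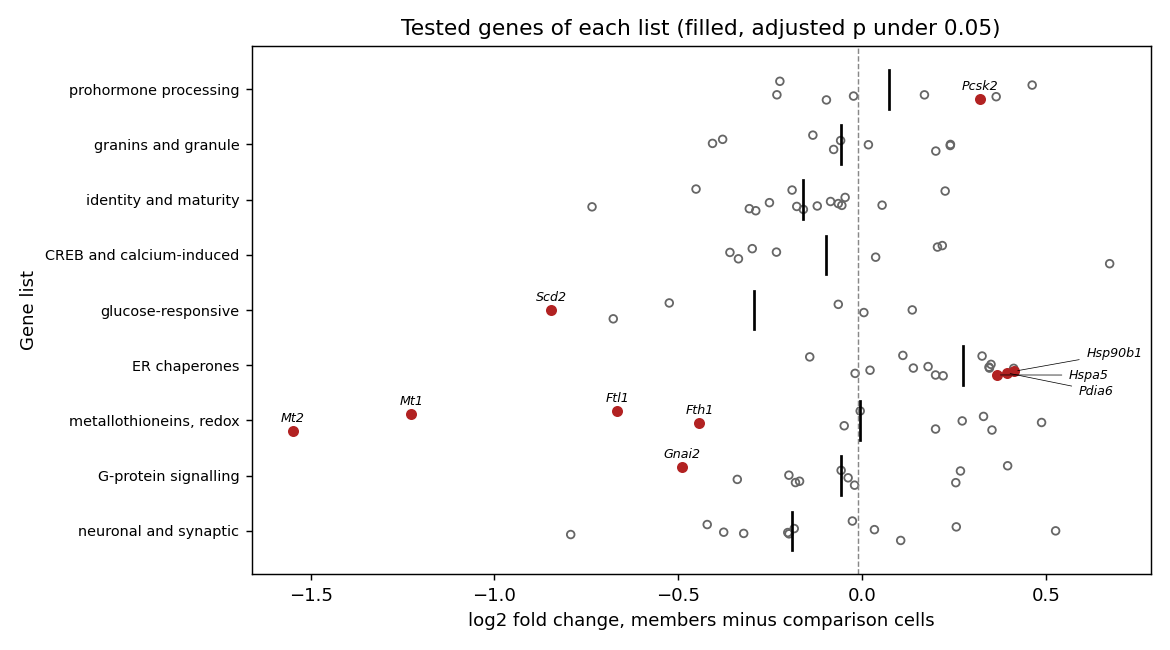
Log2 fold change of members minus comparison cells (horizontal axis) for each tested gene of 9 lists (vertical axis), filled and named where the adjusted p was under 0.05, with black bars for list medians and a dashed line for the median of all 3038 tested genes at -0.01. The ER list has 14 of 16 points above 0, and the identity and maturity list has 13 of 15 below 0. The 4 called genes of the metallothionein and redox list lie below 0.

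Markers of other cell types were measured in both classes. All 7 stellate-cell markers had 0 UMIs in members, as did 6 of 7 endothelial markers including *Pecam1*. Of 9 immune markers 5 were detected in members, and *Ptprc*, *Lyz2*, *Tyrobp* and *Cd52* were at 0. The immune list summed to 22.9, 42.7 and 73.5 CPM at the lowest, median and highest in members and 13.8, 32.8 and 50.6 in comparison cells. Most of it was *C1qa*, with 30 UMIs in members and a median of 35.6 CPM against 17.9 in comparison cells. Acinar markers summed to 0 to 75.9 CPM in members and 5.11 to 157 CPM in comparison cells. The α-cell markers other than *Gcg* summed to 1299 to 2630 CPM in members and 1249 to 2155 CPM in comparison cells. Most of that was *Ttr*, at a median of 1806 CPM in members and 1597 CPM in comparison cells, and *Gc*, the vitamin D-binding protein and 1 of these α-cell markers, was called (0.76, edgeR, adjusted p = 0.0146). The call of *Gc* was lost without control replicate 3, PPTx replicate 1 or PPTx replicate 2 (adjusted p up to 0.148), after thinning (0.95, adjusted p = 0.0794) and against depth-matched cells (0.62, adjusted p = 0.353). The third α-cell marker tested, *Slc7a2*, was at a median of 51.5 CPM in members and 88.0 CPM in comparison cells (-0.39, adjusted p = 0.606, below 0 in 6 of 7). Markers of PP cells other than *Ppy* summed to 49.0 to 755 CPM in members and 161 to 995 CPM in comparison cells, and most of that sum was *Pyy*. The part of these markers in the results was not tested.

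*Pyy*, which encodes peptide YY, was the 1 gene called for a difference between classes that depended on the group. In PPTx samples it was at 149 ± 84.9 CPM in members and 639 ± 280 CPM in comparison cells (SD, n = 4). In control samples it was at 314 ± 388 CPM in members and 294 ± 147 CPM in comparison cells (SD, n = 3). It was higher in members in 0 of 4 PPTx and 2 of 3 control samples, and the difference of the differences was -2.56 on the log2 scale (edgeR interaction term, adjusted p = 4.28e-16), 1 call among 3038 genes (0.0329%). *Pyy* held at least 1% of UMIs in 1 control member, 1 control comparison cell, 8 PPTx comparison cells and 0 PPTx members, and 1 cell gave 25.5% of all *Pyy* UMIs of the comparison cells. Without those cells the interaction term of *Pyy* was 0.19 (adjusted p = 0.998) and its difference between members and comparison cells -0.60 (adjusted p = 0.0374). In that fit 0 genes were called for the interaction by edgeR (104 at an unadjusted p under 0.05), and DESeq2 on all cells called 0 (35 at an unadjusted p under 0.05).

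Within members, PPTx was compared with control over 4 and 3 samples, and 0 of 760 tested genes were called by edgeR (73 at an unadjusted p under 0.05, lowest adjusted p 0.0548) and 0 by DESeq2 (38). A few genes were called in some fits with a sample left out or with other settings, as given in the closing section. *Dapl1* was at 482 to 683 CPM in PPTx members and 221 to 382 CPM in control members, with a log2 fold change of 0.89 and an adjusted p of 0.177. These groups did not overlap, but with 4 and 3 samples the same held for genes with larger p. An example was *Selk* (0.26, edgeR, unadjusted p = 0.261), so the lack of overlap adds little. *Gng12* was at 811 to 1184 CPM and 808 to 986 CPM, groups that overlapped (-0.15, adjusted p = 0.889).

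The genes of this comparison were also measured between the groups over all β-cells. Both comparisons use these samples, and the values are given side by side only. After PPTx, *Mt1* was lower (218 ± 45.4 against 506 ± 163 CPM, log2 fold change -1.26, edgeR, adjusted p = 0.0077) and *Mt2* was lower (-1.42, adjusted p = 0.0108). *Pdia6* (0.69, adjusted p = 0.0251), *Fkbp11* (1.19, adjusted p = 0.00219) and *Cks1b* (1.38, adjusted p = 0.0237) were higher, whereas *Hspa5* was at 0.66 (adjusted p = 0.0565), *Gng12* at 0.53 (adjusted p = 0.248), *Ftl1* at -0.13 (adjusted p = 0.91) and *Pcsk2* at -0.04 (adjusted p = 0.964). *Pyy* was at 1.58 over all β-cells (adjusted p = 0.0276), but its call was lost in 6 of 8 fits that left out a sample (up to 0.12) and by DESeq2 (adjusted p = 0.163), and with other hormones each under 1% it was at 0.22 (adjusted p = 0.86). The PP-cell hormone *Ppy* itself was at 1.86 in that comparison and at 1.23 with other hormones each under 1%. The gate limits *Ppy*, so these values are a description only. Of the others, *Mt1* and *Fkbp11* kept their call in 8 of 8 such fits, *Mt2* lost it without control replicate 1 (adjusted p = 0.0504), and *Pdia6* and *Cks1b* each lost it in 4 of 8 (up to 0.119 and 0.0995). After thinning *Pdia6* was not called (0.63, edgeR, adjusted p = 0.0937), whereas *Mt1*, *Mt2*, *Fkbp11* and *Cks1b* were.

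Cells with exactly 1 *Pdyn* UMI lie between the classes by the rule, and in 6 samples with at least 5 of them their levels were measured beside the other 2 classes. *Dapl1* was at a median of 266 CPM in cells of 0, 311 in cells of 1 and 545 in cells of 2 or more *Pdyn* UMIs. *Mt1* was at 261, 145 and 134 CPM, *Ftl1* at 705, 504 and 413, *Gng12* at 670, 753 and 878, and *Hspa5* at 1096, 922 and 1541. *Pdia6* was at 699, 637 and 811 CPM, *Calm2* at 126, 112 and 178, and *Pyy* at 428, 693 and 165. These genes were chosen for a difference between the outer classes, so the order of the medians is a description. In a fit of cells with 1 UMI against the same comparison cells, *Mt1* was called and lower (-0.83, edgeR, adjusted p = 0.0363), 1 gene of 2133, and *Dapl1* was at 0.52 (adjusted p = 0.405). With members limited to 3 or more *Pdyn* UMIs, 20 of the 27 genes were still called by edgeR. *Dapl1* was then at 1.21, *Mt1* at -1.87, *Mt2* at -3.23 and *Pyy* at -0.68, while *Gc* (0.61, adjusted p = 0.349), *Cks1b* (1.02, adjusted p = 0.112), *Calm2* (0.49, adjusted p = 0.313), *Hsp90b1* (0.36, adjusted p = 0.19), *Pdia6* (0.38, adjusted p = 0.134), *Dtymk* (0.85, adjusted p = 0.383) and *Fkbp11* (0.46, adjusted p = 0.203) were not called.

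**Figure D5:**
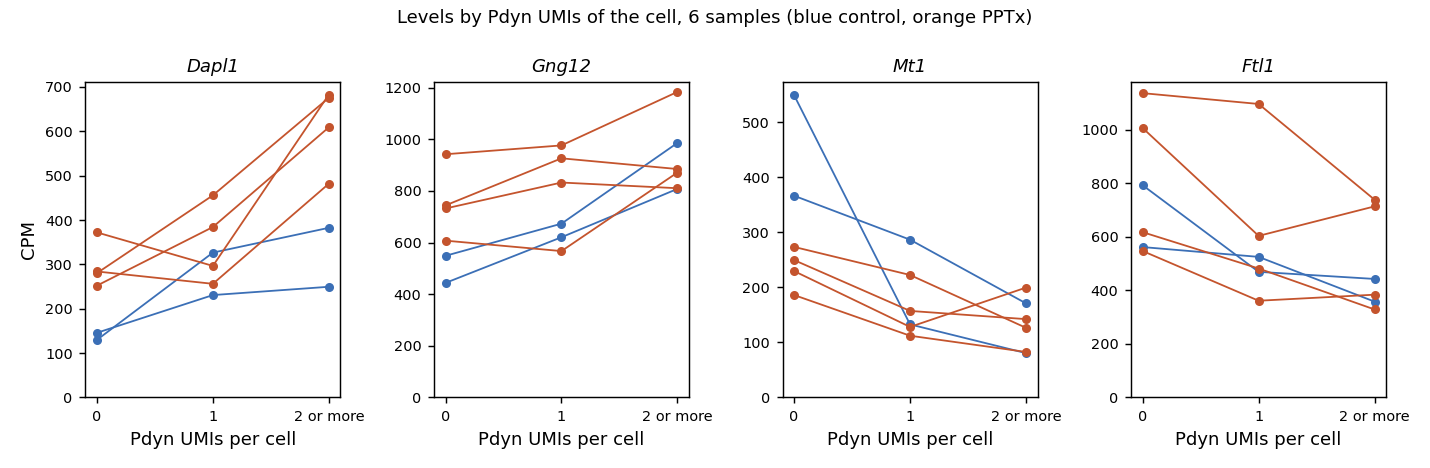
Levels in CPM (vertical axes, from 0) of *Dapl1*, *Gng12*, *Mt1* and *Ftl1* in β-cells with 0, 1 and 2 or more *Pdyn* UMIs (horizontal axes), with a line for each of 6 samples. *Dapl1* and *Gng12* are highest and *Mt1* and *Ftl1* lowest in cells of 2 or more by the median, and single samples cross.

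Members were also compared in the number of genes detected and in replication. After thinning to 3000 UMIs, the sample medians of genes per cell averaged 792 ± 64.4 in members and 815 ± 66.6 in comparison cells (SD, n = 7), a difference of -23.4 ± 13.8 genes that was negative in 7 of 7 samples. An exact permutation test that flipped signs over samples gave p = 0.0156, the smallest that 7 samples allow (adjusted over 2 measures, 0.0312). With members of 3 or more *Pdyn* UMIs the difference was -3.17 genes (exact permutation test, p = 0.781).

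Replicating cells, with at least 2 UMIs of replication markers such as *Mki67* and *Top2a* after thinning, numbered 7 of 100 members and 18 of 646 comparison cells. The share per sample was 0%, 6.90% and 0% in control members and 11.1%, 3.57%, 25% and 0% in PPTx members, where 25% was 3 of 12 cells. It was 1.61% to 3.85% in comparison cells. The means were 6.65 ± 9.12% and 2.84 ± 0.80% (SD, n = 7), and the difference of 3.82 points was positive in 3 of 7 samples (p = 0.375 by the same exact permutation of signs). Without PPTx replicate 3 it was 0.699 points (exact permutation, p = 0.75). Of 12 licensing and S-phase genes 3 were tested, all above 0, and 0 called, *Mcm6* being at 0.87 (adjusted p = 0.285), *Pcna* at 0.58 (adjusted p = 0.598) and *Dut* at 0.49 (adjusted p = 0.41). Outside the lists, *Cks1b*, a regulatory subunit of cyclin-dependent kinases, was called at 1.11 (edgeR, adjusted p = 0.00609, higher in 6 of 7), and *Dtymk*, the thymidylate kinase of dTTP synthesis, at an adjusted p of 0.0385 (higher in 5 of 7). Neither call held in every fit that left out a sample, *Cks1b* being lost without PPTx replicate 3 (adjusted p = 0.227) and *Dtymk* without control replicate 4, PPTx replicate 2 or PPTx replicate 3 (up to 0.586), with too few counts to be tested in 2 other such fits.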

How the data were processed

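Islet cells of 4 control and 4 PPTx samples were analysed. The authors aligned reads to mm10 and counted UMIs with Cell Ranger, and deposited raw counts by gene symbol for each cell, for 24421 genes and 1240 cells. No mitochondrial genes are in the tables. Filtering within Cell Ranger is named in the methods without its criteria, and the gene and UMI caps used below are those of the study's own analysis. The 1 barcode found in 2 samples belonged to no member.

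Cells of at most 3000 genes and 20000 UMIs (1232) were kept. No doublet caller was run. The caps and the limit on other hormones stood in for one. Members and gene lists were chosen with earlier results of these data known. Counts were summed per sample and class (at least 5 cells) and tested by the quasi-likelihood method of edgeR 4.0.16 (TMM scaling after filterByExpr, Benjamini-Hochberg adjustment at 0.05; R 4.3.3), with DESeq2 1.42.0 as an alternative. Members against comparison cells were fitted with sample as a block, because both classes come from the same sample. PPTx against control was fitted without a block. Shares and cell properties were compared by exact two-sided permutation in Python 3.11.15 with scipy 1.17.1. Thinning drew 3000 UMIs from each cell with at least as many. Scripts were tested on simulated data.

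Text names genes of the lists, by size of change, and at most 12 called genes in each direction that had a log2 CPM of at least 5 and moved 1 way in every sample. Genes named otherwise are marked. Other depth cuts, hormone limits, filters, scalings and samples left out were tried. Depth-matched comparison cells (the 2 nearest per member, 216 cells with a median of 8933 UMIs), cells of exactly 1 Pdyn UMI and the exclusion of cells with Pyy at 1% or more were added after seeing the data.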

Additional observations from a re-analysis of the deposited data

Results flagged for a closer look

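A sample far from the others was looked for in groups of 4 to 7 samples over 25 sets of values, where chance marks about 1 in 20. In control replicate 4 the difference between members and comparison cells stood apart for 3 genes, at 835 CPM for *Hspa5*, 958 CPM for *Pcsk2* and 518 CPM for *Nucb2*. The 3 values come from the same 10 members.

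The difference in *Pyy* between members and comparison cells was not the same in PPTx and control, by -2.56 on the log2 scale (interaction term), and was not called without the 10 cells rich in *Pyy*.

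Outside the β-cell gate, 12 *Pdyn* UMIs were found in 5 of 309 kept cells, 2 of which held 3 and 6 UMIs, with insulin at 37.0% and 36.4% and another islet hormone at 20.5% and 8.96% of UMIs. Whether they are doublets was not tested.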

How the results depend on the processing

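The number of genes called between members and comparison cells was 27 (16 higher, 11 lower). It was 35 with RLE scaling (24 and 11), 23 with members of 3 or more Pdyn UMIs (10 and 13), 11 with no filter on low counts (2 and 9), 10 after thinning (3 and 7), 12 without cells over 12000 UMIs (5 and 7), 6 with depth-matched comparison cells (3 and 3) and 0 with no sample block. It was 1 with cells of exactly 1 Pdyn UMI in place of members and 10 to 24 with a sample left out, the lowest being 10 without control replicate 4 and 15 without PPTx replicate 2 or 4. Of the 27 genes, all kept their direction in every planned fit that held them. In cells of exactly 1 Pdyn UMI, 19 of 24 did: *Pyy* was at 0.83, *Hsp90b1* at -0.023, *Hspa5* at -0.032, *Scd2* at 0.045, *Calm2* at -0.076, and among uncalled genes *Kcnj11* at 0.55, *Btg2* at 0.12 and *Gpx3* at -0.44. Thinned, 8 of 22 were called. Over all alternatives, 340 values of the 27 genes kept the call and 199 lost it in the same direction. A further 5, in cells of exactly 1 Pdyn UMI, were reversed and not called.

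The share difference (0.0969 points) was -1.34 with at least 3 Pdyn UMIs, -0.138 with 2 or more after thinning, -0.211 over β-cells of at least 3000 UMIs, and -2.22 to 4.46 with a sample left out, at p of 0.114 or more. The Pdyn level was 0.11 after thinning and -0.34 to 0.17 with a sample left out.

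Calls between PPTx and control in all β-cells (19) were 79 with no filter, 10 after thinning and 7 to 27 with a sample left out (8 without control replicate 1 or 2, 7 without PPTx replicate 1). For the interaction (1) they were 0 by DESeq2, 0 with other hormones under 1%, 2 with no filter, 0 without cells rich in Pyy and 1 to 4 with a sample left out (4 without control replicate 3). Within members (0) they were 2 with no filter, 4 with other hormones under 1% and 0 to 6 with a sample left out (6 without control replicate 4, 4 without control replicate 3). The difference in genes per cell was -3.17 with members of 3 or more Pdyn UMIs. The causes were not tested.

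Both groups carry replicate numbers 1 to 4, and the labels do not say whether same-numbered samples belong together. Same-numbered samples deviated from their group means with correlations of 0.0584, 0.0249, 0.101 and 0.15. Between differently numbered samples the correlations were -0.113 to 0.0716. Not every sample correlated best with its own number, and whether the numbers pair the samples was not settled. With a replicate block, 51 genes were called between the groups, the share difference had p = 1 (exact permutation of signs over pairs) and 0 genes were called within members. The mitochondrial share could not be computed.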
